A study of Rattus norvegicus with 12 samples.

Results

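The genes described here are the rat genes of the major histocompatibility complex (MHC), whose symbols start with RT1, together with 15 genes that load peptides onto MHC molecules or control their transcription. They were chosen by symbol alone, and the chosen genes numbered 53, read by 62 probes, of 15159 genes named on the array. Of these, 29 were class I genes, 9 were class II genes, 10 belonged to the class I processing route and 5 to the class II route. Another 30 genes of the same kind, among them Nlrc5, the class I transactivator, were not matched to any probe and are not analysed here.

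MHC class I molecules are present on most nucleated cells and show CD8+ T cells peptides cut by the proteasome, which the transporter Tap1/Tap2 carries into the endoplasmic reticulum. Class II molecules belong mainly to macrophages, dendritic cells and B cells and show CD4+ T cells peptides cut by lysosomal proteases. The invariant chain Cd74 guards the class II groove, RT1-DM helps exchange its remnant for peptide, and Ciita switches the class II genes on.

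RNA was measured on 12 single-colour Agilent arrays of sciatic nerve, dorsal root ganglia (DRG) and dorsal spinal cord from female rats aged 8 weeks, after 50 μg of the myelin basic protein peptide MBP84-104 in 5 μL PBS had been injected into the left sciatic nerve. By the labels, wild-type arrays came from Sprague-Dawley rats at day 12, and nude arrays came from athymic Hsd:RH-Foxn1rnu rats at day 7, which lack a working thymus but keep macrophages and B cells. The controls were the right nerve given PBS, the right DRG, and dorsal cord above the lumbar enlargement, set against lumbar dorsal cord. Each of the 12 conditions was 1 array of RNA pooled from 3 rats, so no spread between animals is known, no test was possible and no p-value is given. Rat strain, day and T cell deficiency cannot be told apart, and neither can the slide for DRG and cord, since the 4 wild-type arrays of these tissues lay on a slide of their own. The arrays of each injected side and its control shared a slide. The study's text differs from the labels on the day of collection, the wild-type rats and the number of rats, and the labels were followed here.

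A level is the log2 signal of a probe after subtracting the median of its array, and a ratio is the difference between 2 levels of the same probe. The lone measure of error was the spread between spots of a probe, which gave a ratio an error between 0.125 and 0.148 (SD, log2, from 2 spots). Some members were read by 1 spot per array, so no spread of their own is known. Among them were RT1-T18, RT1-CE5, RT1-CE7, RT1-T24-4, RT1-Bb and RT1-Db1 by the probes used here. A gene was called higher or lower at a 2-fold ratio. Where only 1 of the arrays was well above background, the other was raised to the lowest detected signal if below it. Such a ratio is a bound, and a gene whose bound pointed the other way was left out. RT1 genes are close copies of each other and their sequences differ between strains, so a class I value may include RNA of neighbouring genes, and level and probe binding cannot be told apart between rat types.

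The tissue labels were checked against marker genes. Marker signals, relative to the array median, were summed before taking the log2. For sensory neuron markers this log2 value was between 6.99 and 7.17 on the 4 DRG arrays and at most 1.30 elsewhere. The median signal was 15.4 on the injected nude nerve and between 19.5 and 74.9 on the others. Of 9 T cell markers, 3 (Cd3d, Cd3g and Cd8b) could be measured in the nude nerve. Cd3d and Cd8b were well above background on all 12 arrays, those of cord included.

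Of the 53 genes, 47 were well above background on at least 1 array and 36 on all 12. By group, 25 of 29 class I genes, 7 of 9 class II genes, and all 10 and 5 genes of the class I and class II routes passed on at least 1 array. RT1-Ha, RT1-DOa, RT1-M1-2, RT1-M1-4, RT1-M4 and RT1-M5 passed on none, and RT1-CE6 and RT1-M2 passed on 1 array. The heat map of levels shows the 36 genes measured throughout.

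**Figure D1:**
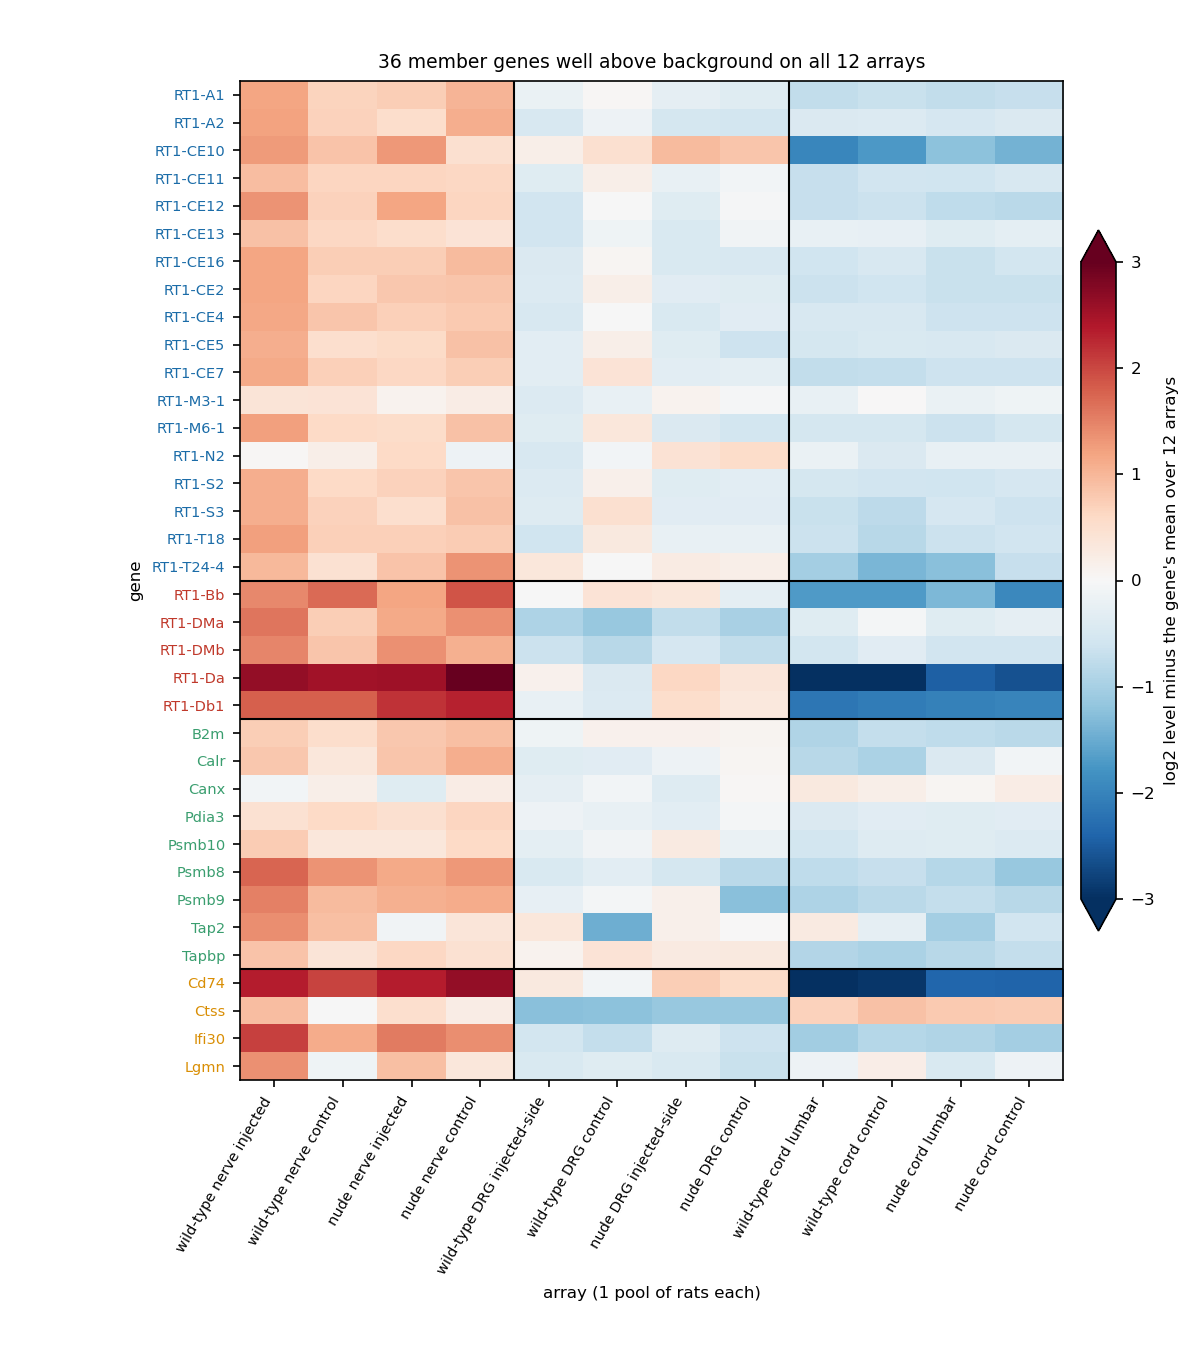
Log2 level of 36 genes on each of 12 arrays minus the mean of the gene over the 12 arrays, with class I genes (blue names), class II genes (red), class I processing genes (green) and class II processing genes (orange). The class II chains and Cd74 are high in nerve and low in cord, and most class I genes vary in step.

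Tissue set the largest differences. On the wild-type control arrays, 5 of 5 class II genes measured in nerve and cord were higher in nerve, with a median log2 difference of 3.39, against 1.22 for 20 class I genes and 0.12 for 9228 genes measured in all 3 tissues. On the nude control arrays the medians were 3.82, 1.40 and 0.24. RT1-Da, the alpha chain of a class II molecule, had log2 levels of 6.73 in wild-type nerve, 3.77 in DRG and 1.10 in cord, so that nerve exceeded cord 49.4-fold. In nude controls its levels were 7.28, 4.57 and 1.60. Cd74 followed the same order, at 7.61, 5.50 and 2.67 in wild-type and 8.21, 6.16 and 3.17 in nude controls. RT1-Db1, a beta chain, was at 6.45, 4.26 and 2.55 in wild-type controls. RT1-Ba was well above background on the 4 nerve arrays alone, and exceeded cord at least 4.81-fold in wild-type and at least 4.59-fold in nude controls.

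Ifi30, the lysosomal thiol reductase, had this order too, at 6.49, 4.66 and 4.52 in wild-type and 6.77, 4.76 and 4.37 in nude controls. RT1-DMa, RT1-DMb, Ctss and Lgmn did not share it. RT1-DMa was at 3.10 in wild-type nerve but at 1.23 in DRG and 2.31 in cord, with nude controls at 3.74, 1.41 and 2.12. Ctss, the lysosomal protease cathepsin S, was highest in cord in both rat types, at 6.00, 4.78 and 6.89 for wild-type nerve, DRG and cord and at 6.22, 4.87 and 6.76 for nude. Lgmn, the asparaginyl endopeptidase legumain, was at 4.44, 4.20 and 4.77 in wild-type controls, and its order differed in nude controls at 4.91, 3.91 and 4.42. Ciita was well above background on the 4 nerve arrays and 3 DRG arrays and on no cord array.

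**Figure D2:**
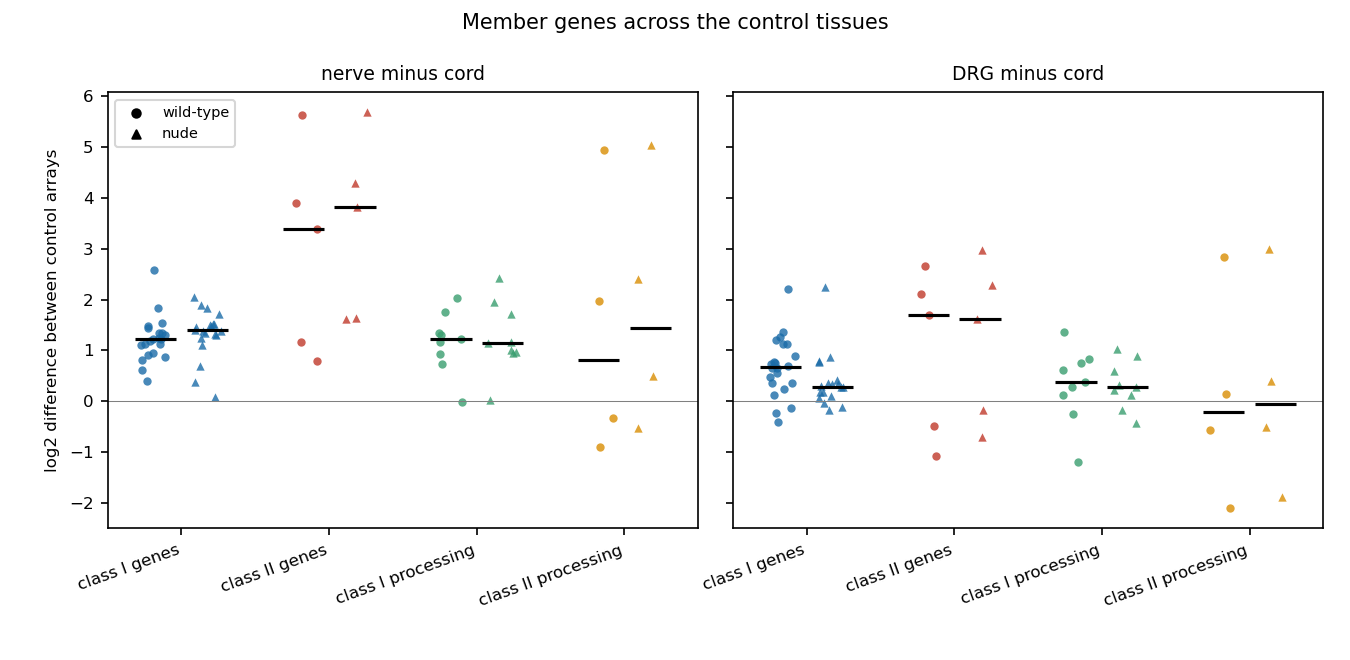
Log2 difference between control arrays of nerve and cord (left) and of DRG and cord (right) for genes well above background on both, with 1 point per gene, circles for wild-type and triangles for nude rats, and bars for medians. Class II genes have the highest medians in both panels, and 2 of 5 lie below 0 for DRG minus cord.

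Within the class I group, 14 of 18 genes measured on all arrays varied together. After the mean of each tissue was removed, their correlation with the median of the other class I genes over 12 arrays was between 0.62 and 0.96. RT1-CE10 (0.07), RT1-M3-1 (0.11), RT1-T24-4 (-0.03) and RT1-N2 (-0.24) departed from the group. Class II genes gave values between -0.12 and 0.59. These are descriptions over arrays that share pools and slides, and probes that bind RNA of several class I genes would vary together as well. How far this happened was not tested.

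For 5 class I and class II genes a second probe was measured in these comparisons. They gave 29 pairs of ratios, of which 22 had the same sign, and their median absolute difference was 0.15 (log2). The largest difference was 0.75, for RT1-Bb in the wild-type DRG.

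In the injected wild-type nerve, the class II route was higher than in the contralateral nerve in all 5 genes, with a median ratio of 0.94. Lgmn was at 5.95 in injected and 4.44 in contralateral nerve, a ratio of 1.51 or 2.85-fold. Ciita was at 0.59 and -0.44, a ratio of 1.03 or 2.05-fold, but of 0.40 with a normexp background correction, which is below 2-fold. These were the 2 genes of 43 measured that reached 2-fold, against 4.68% of all genes called higher, and none of the 43 was called lower, against 4.08%. Ifi30 was at 7.43 and 6.49, and Ctss at 6.93 and 6.00. Cd74 had the lowest ratio of the route, at 0.34.

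In this pair of arrays, class II genes of peptide loading had higher ratios than those for the presenting chains. The grouping was not tested. RT1-DMa was at 3.97 in injected and 3.10 in contralateral nerve, a ratio of 0.87, and RT1-DMb had a ratio of 0.64. RT1-DOb, whose product modulates RT1-DM, had a ratio of at least 0.64. The 4 genes for chains that present peptide had ratios of 0.11 (RT1-Da), -0.0025 (RT1-Ba), -0.01 (RT1-Db1) and -0.25 (RT1-Bb). The peptide-loading genes lay above the spot error, while of the chains only RT1-Bb lay outside it, on the lower side by both of its probes (-0.25 and -0.17).

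The class I group was higher by less, but in nearly every gene. Of 21 genes, 19 had a ratio above 0, with a median of 0.44 against -0.05 for all 10213 genes measured, and 44.7% of all genes were above 0. None reached 2-fold. RT1-A1, a classical class I gene, was at 7.95 and 7.44, and its second probe gave a ratio of 0.48 beside 0.51. RT1-N3 had the highest ratio, 0.94, and RT1-N2 (-0.13) and RT1-M3-1 (-0.01) were the 2 genes not above 0. In the class I route, 8 of 10 genes were above 0. These were the immunoproteasome subunits Psmb9 (0.56), Psmb8 (0.41) and Psmb10 (0.41), the transporter subunits Tap2 (0.49) and Tap1 (0.37), the loading factor Tapbp (0.48), the chaperone Calr (0.46) and B2m (0.22), the light chain of class I. The chaperones Canx (-0.26) and Pdia3 (-0.15) were lower.

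Other genes of the pathway, from lists that hold no member, divided the same arrays. Of the class II route, the proteases Ctsd (1.28) and Ctsb (1.12) reached 2-fold among 7 genes measured, of which 4 were above 0. Of the class I route, 3 of 8 were above 0 and none reached 2-fold, with the constitutive proteasome subunits Psmb5, Psmb6 and Psmb7 at -0.08, 0.02 and -0.37. Of interferon control genes, 5 of 5 were above 0, and Irf8 had a ratio of at least 1.83. All 10 macrophage markers were above 0, 4 of them at least 2-fold. The log2 of their summed signals was 9.72 in injected and 8.73 in contralateral nerve. Schwann cell markers ran the other way, with 0 of 5 above 0 and the myelin gene Prx at -1.36. More cells of a type and more RNA per cell cannot be told apart in such tissue RNA, and the part of these markers in the MHC ratios was not tested.

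**Figure D3:**
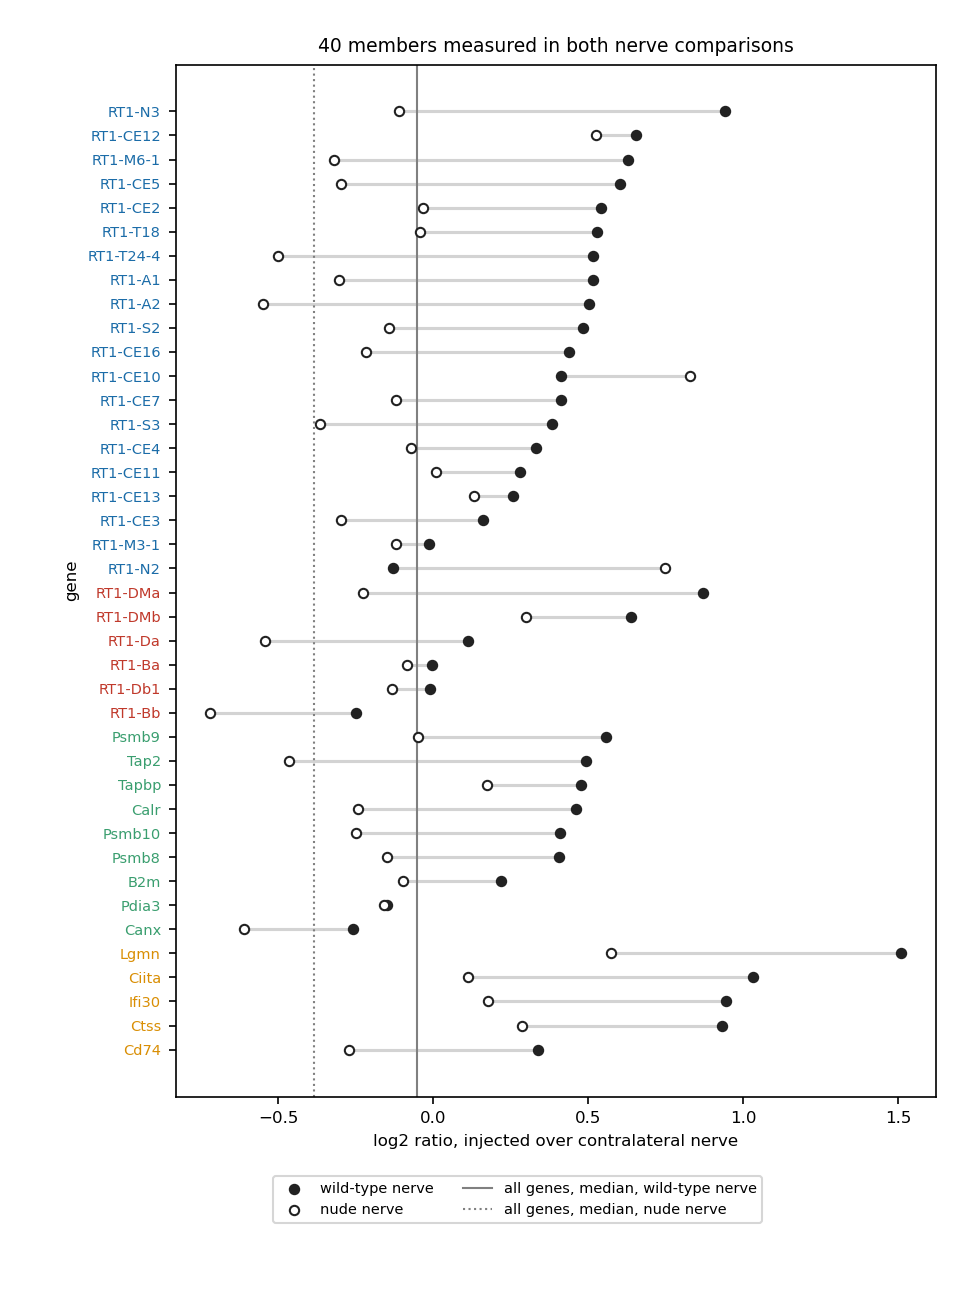
Log2 ratio of injected over contralateral nerve for 40 genes measured in both rat types, filled circles for wild-type and open circles for nude, with vertical lines at the medians of all genes (-0.05 and -0.38). The filled circle lies to the right of the open one for 38 of the 40 genes, as it does for 74.9% of all 9399 genes measured in both, and for 29 of 40 (52.0% of all) once each median is subtracted.

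The letters around the start sites of the members were searched for motifs, and any link between motifs and ratios was not tested. RT1-DMb had no promoter entry. The promoters of RT1-Da and RT1-Bb, of RT1-DMa and of Tap1 are printed from RefSeq (GRCr8), 250 bases before to 50 after the start, to show the class II Y box (CTGATTGG, searched on both strands) and the core of the interferon-stimulated response element. Both motifs are in capitals. They lie at chr20:4515165-4515464 (plus strand), chr20:4604069-4604368 (minus), chr20:4712286-4712585 (minus) and chr20:4668494-4668793 (minus).
RT1-Da: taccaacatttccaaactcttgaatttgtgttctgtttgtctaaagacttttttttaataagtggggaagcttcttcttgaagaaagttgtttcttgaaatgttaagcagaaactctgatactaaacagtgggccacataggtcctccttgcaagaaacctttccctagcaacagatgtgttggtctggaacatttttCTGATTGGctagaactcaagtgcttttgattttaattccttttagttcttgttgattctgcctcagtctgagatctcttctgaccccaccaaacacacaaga
RT1-Bb: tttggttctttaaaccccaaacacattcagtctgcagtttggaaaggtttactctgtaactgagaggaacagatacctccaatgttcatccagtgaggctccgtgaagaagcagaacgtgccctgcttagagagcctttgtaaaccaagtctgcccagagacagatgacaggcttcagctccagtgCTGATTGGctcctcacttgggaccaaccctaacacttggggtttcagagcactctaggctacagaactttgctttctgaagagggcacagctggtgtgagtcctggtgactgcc
RT1-DMa: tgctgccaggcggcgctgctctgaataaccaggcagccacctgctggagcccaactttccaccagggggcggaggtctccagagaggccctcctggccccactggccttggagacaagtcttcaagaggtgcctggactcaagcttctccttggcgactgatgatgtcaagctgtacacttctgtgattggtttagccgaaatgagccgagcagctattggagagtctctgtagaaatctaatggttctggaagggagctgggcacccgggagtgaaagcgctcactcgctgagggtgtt
Tap1: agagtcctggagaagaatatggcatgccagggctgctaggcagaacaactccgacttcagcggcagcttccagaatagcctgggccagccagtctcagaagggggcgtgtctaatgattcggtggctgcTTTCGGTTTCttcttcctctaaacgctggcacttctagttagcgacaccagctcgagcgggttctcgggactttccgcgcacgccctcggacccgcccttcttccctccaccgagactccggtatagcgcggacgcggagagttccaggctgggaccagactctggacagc
The Y box was in 6 of 8 class II promoters, those of RT1-Da, RT1-Ba, RT1-Bb, RT1-Db1, RT1-DOa and RT1-Ha, and not in those of RT1-DMa or RT1-DOb. It was in 10 of 25 class I promoters and in 3.5% of all 33469 promoters. In the class I and class II routes it was in 2 of 9 and 0 of 4 promoters. Its inner core ATTGG, which the Y box contains, was in all 8 class II promoters and in 37.5% of all. The interferon element core was in 6 of 9 promoters of the class I route (B2m, Tap1, Tap2, Tapbp, Psmb8 and Psmb10), in 3 of 25 class I promoters and in 3.92% of all. A match is a run of letters and not a bound site.

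In the injected nude nerve, no member of 40 reached 2-fold, against 7.52% of all genes called higher and 13.5% called lower. All genes had a median ratio of -0.38 there, so 11 of 40 members were above 0 but 34 of 40 were above that median. The class II route was again the highest group, at a median of 0.18, with Lgmn at 5.48 in injected and 4.91 in contralateral nerve. Class I genes had a median of -0.12, class II genes -0.18 and the class I route -0.16. RT1-DMa had a ratio of -0.22 and RT1-DMb 0.30, while RT1-Da (-0.54) and RT1-Bb (-0.72) were the lowest of the class II genes. RT1-Db1 was at -0.13 by one probe and -0.82 by the other.

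RT1-CE10 and RT1-N2 had the highest ratios of the class I group. RT1-CE10 was at 4.10 in injected and 3.27 in contralateral nude nerve, a ratio of 0.83, and RT1-N2 was at 4.26 and 3.52, a ratio of 0.75. RT1-CE12 followed at 0.52. Of macrophage markers, 6 of 10 were above 0 and none reached 2-fold, where 28.1% of all genes were above 0. The macrophage marker median relative to all genes was 0.57, against 0.74 in the wild-type nerve. Prx had a ratio of -1.79. The nude result depended on the background correction. With a normexp correction the medians relative to all genes were -0.07 for class I genes, -0.30 for class II genes and -0.15 for the class I route, against 0.26, 0.20 and 0.22, and 20 of 40 members were called lower, against 43.7% of all genes. With it the class II route stayed above all genes, at 0.15 against 0.56.

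**Figure D4:**
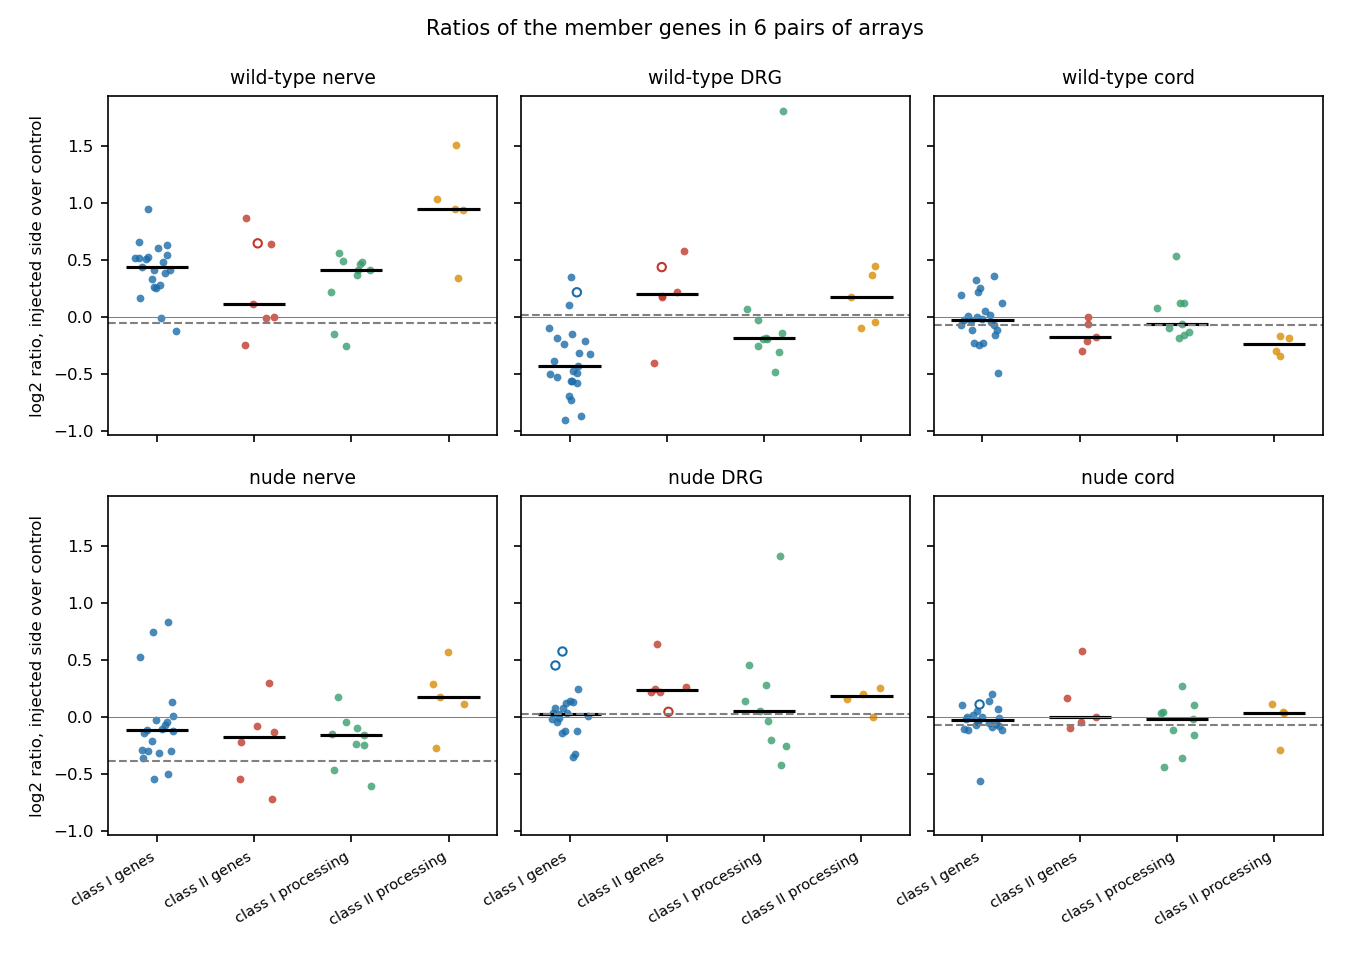
Log2 ratio of the injected side over its control (lumbar over upper cord for the cord) for each gene, by gene group, in 6 pairs of arrays, with open circles for bounds, bars for group medians and a dashed line for the median of all genes. The class I group lies above the dashed line in the wild-type nerve and below it in the wild-type DRG.

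In the wild-type DRG, class I genes had the opposite sign to the nerve. Of 23 genes, 3 were above 0 and the median was -0.43, against 0.01 for all genes. RT1-T18 was at 2.86 on the injected side and 3.76 on the control side, RT1-S3 at 3.34 and 4.21, RT1-CE7 at 3.22 and 3.95, and RT1-M6-1 at 4.02 and 4.72. None reached 2-fold. RT1-T18 and RT1-CE7 were read by 1 spot, and the second RT1-T18 probe was not well above background on the DRG arrays. Both probes were lower for RT1-A1 (-0.22 and -0.68), RT1-CE2 (-0.58 and -0.74) and RT1-S2 (-0.57 and -0.81). Across the 8 alternatives run, the median relative to all genes lay between -0.46 and -0.31.

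The wild-type control array had the highest class I median of the DRG arrays. Strain, day, slide and probe binding differ or may differ between rat types, so the nude arrays cannot show which wild-type array departed. Relative to each gene's mean over 12 arrays, the median of 18 class I genes was 0.11 on the wild-type control DRG, -0.40 on the wild-type injected side, and -0.34 and -0.31 on the nude injected side and control. The nude DRG pair itself gave a class I median of 0.03, with 12 of 20 genes above 0. Of macrophage markers, 3 of 10 were above 0 in the wild-type DRG pair, and T cell markers measured there were above 0 in 1 of 4.

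**Figure D5:**
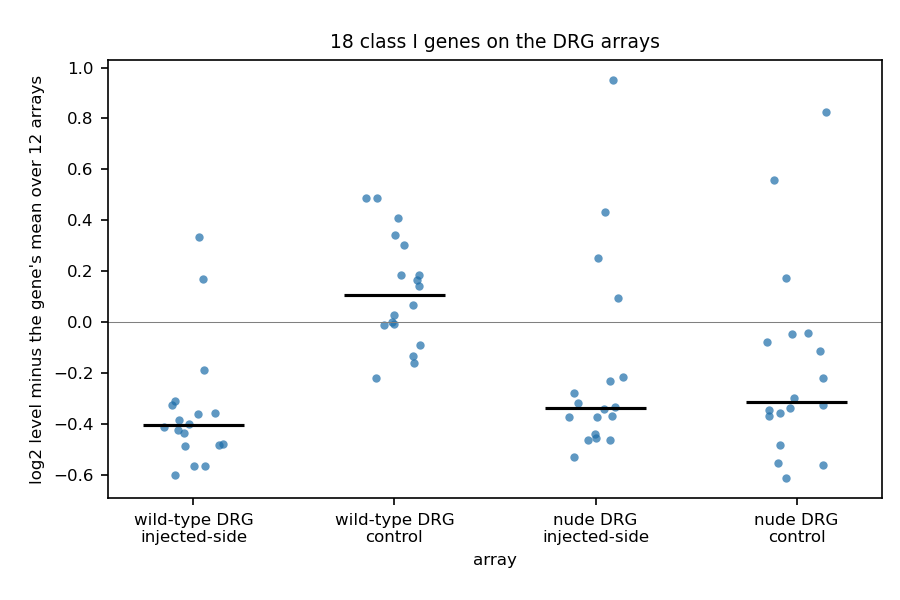
Log2 level of 18 class I genes on the 4 DRG arrays, each minus the mean of the gene over 12 arrays, with 1 point per gene and bars for medians. The wild-type control array has a median of 0.11, and the other 3 arrays have medians between -0.40 and -0.31.

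Most class II genes had ratios above 0 in both DRG pairs, as did 52.0% of all genes in wild-type and 53.6% in nude rats. The spot error of a ratio was 0.14 in both pairs. In wild-type rats 5 of 6 were above 0, with a median of 0.20, and RT1-Da was at 4.34 and 3.77. The value of RT1-DOb is a bound in both pairs, at least 0.44 in wild-type and at least 0.04 in nude rats. The exception was RT1-Bb, at -0.41 by one probe and 0.34 by the other. In nude rats 6 of 6 were above 0, with a median of 0.23, and RT1-Bb had the highest ratio of the 5 genes measured on both arrays, at 0.64 and 0.20 by its probes.

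One member reached 2-fold in each DRG pair, and in each case the control array held the lowest level of that gene on any array. Of 44 members measured in wild-type DRG, Tap2 was called higher, against 0.489% of all genes called higher, and none was called lower, against 0.517%. Tap2 was at 1.72 on the injected side and -0.08 on the control side, a ratio of 1.80. The spots of the control array gave similar raw signals of 33.3 and 38.0, and Tap2 was between 0.35 and 2.78 on the other 11 arrays. Tap1, its partner subunit, had a ratio of -0.49 in the same pair.

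Of 39 members measured in nude DRG, Psmb9 was called higher, against 0.682% of all genes called higher, and none was called lower, against 0.388%. Its level was 3.41 on the injected side and 2.003 on the control side, a ratio of 1.41. On the control array its spots gave signals of 37.3 and 164 and differed 4.41-fold, a wider gap than for any other member read by 2 spots and well above background. With the brighter spot alone the ratio was 0.34, and no member reached 2-fold. The other immunoproteasome subunits Psmb10 and Psmb8 had ratios of 0.46 and 0.28.

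In the cord no member reached 2-fold in either rat type. Of 41 members measured in wild-type cord, 0 were called, against 0.913% of all genes called higher and 0.831% called lower in lumbar cord. Of 40 in nude cord, 0 were called, against 0.776% and 0.589%. Class I genes had medians of -0.03 in both, with all genes at -0.07. In wild-type cord, 0 of 5 class II genes and 0 of 4 class II route genes were above 0, with medians of -0.18 and -0.24, led by Lgmn (-0.34), RT1-DMa (-0.30) and Cd74 (-0.30). In nude cord the medians were -0.0020 and 0.037, and RT1-Bb had the highest ratio, 0.58. Tap2 was at 1.65 in lumbar and 1.12 in upper wild-type cord, but at 0.35 and 0.79 in nude cord.

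Peripheral myelin markers differed far more between the cord arrays than any member. Of 5 Schwann cell markers, 4 were at least 2-fold higher in lumbar cord in both rat types, with Prx at 3.12 and 2.60, and the astrocyte gene Gfap was at -1.52 and -1.10. Their part in the MHC ratios was not tested.

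Control arrays of nude and wild-type rats were compared last. In the nerve, 0 of 43 members reached 2-fold, against 0.841% of all genes called higher in nude rats and 2.41% called lower. All genes had a median of 0.23 there and 74.4% of them were above 0. All 7 class II genes and all 5 class II route genes were above 0, and 5 of 7 and 4 of 5 were above the median of all genes, with medians of 0.52 and 0.47, while class I genes had a median of 0.16. In the DRG, Tap2 (1.46) was called higher and Psmb9 (-1.20) lower of 40 members, against 1.23% of all genes called higher and 1.63% lower, and both rest on the arrays described above. With the brighter spot alone Psmb9 was at -0.13. In the cord 0 of 40 reached 2-fold, against 0.501% and 0.251%.

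RT1-Da and Cd74 were higher in nude controls of all 3 tissues. The log2 differences were 0.55 in nerve, 0.81 in DRG and 0.49 in cord for RT1-Da, and 0.60, 0.65 and 0.50 for Cd74. Calr, an endoplasmic reticulum chaperone, was higher too, at 0.73, 0.38 and 0.88. RT1-Bb did not share this by the probe used here, at 0.19, -0.71 and -0.23, but its second probe did. That probe was at 4.50 in nude and 4.08 in wild-type control nerve, and at 2.12 and 1.45 in control DRG. In control cord it was well above background in nude but not in wild-type rats. Class I genes in the DRG had a median of -0.39 between controls but 0.05 between injected sides. On the injected-side arrays RT1-Da differed by -0.10 in nerve, 0.49 in DRG and 0.83 in cord, so nerve was the one tissue without a higher nude value. Tap2 was lower in nude rats in injected nerve (-1.51) and lumbar cord (-1.30), where all genes had medians of -0.10 and -0.02. It was the 1 member of 41 measured that reached 2-fold in each. The share of all genes called was not computed for these 2 comparisons.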

How the data were processed

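Cy3-labelled RNA of 12 pools of 3 rats was measured on Agilent rat arrays. The intensity values were deposited as scanner files. The authors' extraction software (version 10.7.3.1 in the headers, 10.5 in the submitters' processing notes) subtracted the background, with no step between arrays. The deposited log2 values are the authors' normalized values, with equal distributions on all arrays, and served as an alternative. Each spot also carries other values, which are quality flags (0 or 1) deposited with the signals.

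Spots flagged as outliers were dropped, log2 signals of a probe were averaged and the median of each array was subtracted, after the normalization to the median that the methods name. Of 30367 probes, 18006 were named through RefSeq accessions (GRCr8), and a gene with several probes took its brightest. Precision was limited by the number of arrays, 1 per condition, so the methods' t-test was not run. Members, gene lists and alternatives were chosen with earlier results of these data known. All members could be named, and per comparison those at least 2-fold changed or with the largest ratios of their group were. Marker lists covered macrophages, microglia, dendritic cells, B cells, T cells, Schwann cells, sensory neurons and central glia, and pathway lists the class I and class II routes, class I-like molecules, interferon control and costimulation. Alternatives were the 75th percentile, quantile normalization, normexp (offset 50, on median spot signals), the deposited values, other filters, the mean over probes, outlier spots kept and a 1.5-fold threshold. The ratios were tested on simulated data. Normexp came from limma 3.58.1 (R 4.3.3), and all else was computed with pandas 2.3.3, numpy 2.4.6 and matplotlib 3.10.9 under Python 3.11.15. Some genes of these lists are not reported here.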

Additional observations from a re-analysis of the deposited data

How the results depend on the processing

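The 4 group medians of the wild-type nerve, relative to all genes, kept their sign in all 8 alternatives run and moved by less than the spot error, and so did the class I and class II gene medians of the wild-type DRG. The nude nerve medians did not. Without a filter and floor they were -0.0017 for class I genes, -0.065 for class II genes, -0.17 for the class I route and 0.21 for the class II route, and with normexp -0.066, -0.30, -0.15 and 0.15. With the mean over all probes the class II genes were at -0.0037. With normexp, the class I route of the wild-type DRG was at -0.032 and the class II route of the wild-type cord at -0.32.

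Counts of members past 2-fold in either direction moved as follows. In the wild-type nerve (2) they were 5 with the 75th percentile, 3 (Ciita, Lgmn and RT1-CE5) with the mean over all probes and 1 (Lgmn) with normexp. In the nude nerve (0) they were 2 (RT1-CE10 and RT1-N2) with the 75th percentile, quantile normalization and the deposited values, 4 without a filter (all higher) and 20 with normexp (all lower). The shares of all genes called in either direction there were 21.0% as reported, 17.96%, 15.3% and 19.3% with the first 3 of these, 37.9% without a filter and 44.0% with normexp. In the wild-type DRG (1) they were 2 with the deposited values and without a filter. In the nude DRG (1) they were 3 with the deposited values, 6 without a filter and 0 with the brighter Psmb9 spot on the nude control DRG, an alternative chosen after seeing the data. Between nude and wild-type controls they were 1 with normexp and 2 without a filter in nerve (0), and 9 with normexp, 4 with the deposited values, 7 without a filter and 1 with the brighter Psmb9 spot in DRG (2). In cord (0) they were 2 without a filter. At 1.5-fold the counts were 11 and 4 for wild-type and nude nerve, 5 and 2 for the DRG, and 7, 13 and 3 for the controls of nerve, DRG and cord. The cord pairs stayed at 0. Of all genes, 23.7% and 49.9% were past 1.5-fold in wild-type and nude nerve, 6.46% and 6.62% in the DRG, 16.6%, 12.6% and 5.37% between controls, and 9.95% and 6.74% in the cord pairs. The causes of these moves were not tested. The gene name column planned as an alternative was not run, because the scanner files used here hold none. No paired analysis was possible because each condition has 1 array.

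The dim signal of the injected nude nerve, where fewer probes were well above background than on any other array (52.7%), limits low genes there.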

Other observations

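Lists not described above gave these values in the injected wild-type nerve. Of 4 class I-like molecules measured, 2 were above 0, with Fcgrt, the neonatal Fc receptor, at 0.54. Of 3 dendritic cell markers 3 were above 0, and Clec9a, a marker of cross-presenting dendritic cells, had a ratio of at least 1.56. The B cell factor Pax5, the one B cell marker measured, was at 0.96, and at 1.75 in the nude nerve. Of 6 T cell markers 5 were above 0, and Cd8a had a ratio of at least 1.10. In the nude nerve 2 of 3 T cell markers were above 0. There Cd3d was at least 2-fold higher, at 2.85 in injected and 1.58 in contralateral nerve. Of 4 microglia markers 2 were above 0, and of 5 central glia markers 0 were. The costimulatory genes Cd86 and Cd40 were at 0.26 (a bound) and 0.17. In the nude nerve, Irf8 was at 1.30.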
